A study of Mus musculus with 6 samples.

Results

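The chemokines and their receptors were examined in the livers of mice on a methionine- and choline-deficient diet and on its sufficient control. Members were found by symbol: every gene named Ccl, Cxcl, Ccr, Cxcr or Ackr followed by a number, with Ccrl2, Cx3cl1, Cx3cr1, Xcl1 and Xcr1. They came to 61 of the 21899 genes in the deposited table, of which 38 were ligands and 23 were receptors. Counts were high enough to test 35 of them, 23 ligands and 12 receptors.

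The mice were wild-type C57BL6J, and each of the 6 libraries was made from polyA RNA of liver. The MCS group received the methionine/choline-sufficient diet and the MCD group the deficient one, both for 6 weeks, with 3 libraries in each. The deficient diet is a standard way to produce fatty liver with inflammation and fibrosis, and mice on it are known to lose weight, unlike most people with the disease. The labels give neither sex nor age, nor whether each library stands for an animal of its own, so the p-values reflect how much these libraries varied, which could be technical variation only.

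Chemokines are small secreted proteins that direct the movement of white blood cells along a gradient. Most act through receptors coupled to inhibitory G proteins, which signal to the cytoskeleton and adhesion machinery, while a few atypical receptors bind ligands without such signalling and remove or hold them. In fatty liver disease the best-known axis joins Ccl2, released by injured and activated cells, to Ccr2 on blood monocytes, which enter the tissue and become macrophages.

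Total counts ran from 16615469 to 21322771 per library. Levels are given as counts per 1e06 counts (CPM) on library sizes scaled by TMM, which assumes that most genes do not change, and 3 counts correspond to 0.104 to 0.227 CPM. TPM, the corresponding unit that also divides by transcript length, is used to compare one gene with another. On library size alone the median log2 fold change over all tested genes was 0.57, against 0.015 with TMM, so the folds below are relative to that typical gene. Of all calls, 59.7% were higher in MCD with TMM, 93.6% on library size alone and 84.9% when the 50 most abundant genes and the Mup family were left out of the library sizes.

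Differences were taken from edgeR's quasi-likelihood test, and a gene is said to rise or fall where its Benjamini-Hochberg adjusted p, over 12599 tested genes, was under 0.05. Of the 35 tested members, 21 rose in MCD livers, where 14.8% of all tested genes rose, and 1 fell, where 9.97% of all fell. The ligands gave 14 higher, 1 lower and 8 that did not pass, and the receptors 7 higher and 5 that did not pass. In the same test 0 receptors fell, also at an unadjusted p under 0.05 and with DESeq2 or limma-voom, but Ackr2 did once MCD replicate 3 was left out. The median log2 fold change was 1.69 over the tested ligands and 1.85 over the tested receptors. These counts describe genes that passed a count filter, and 18 of the 35 did not reach its level of 0.485 CPM in all 3 MCS libraries, 10 of them among the 21 that rose. Of the 17 that did reach it, 11 rose and 1 fell, beside 1367 and 1254 of 11262 such genes overall.

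**Figure D1:**
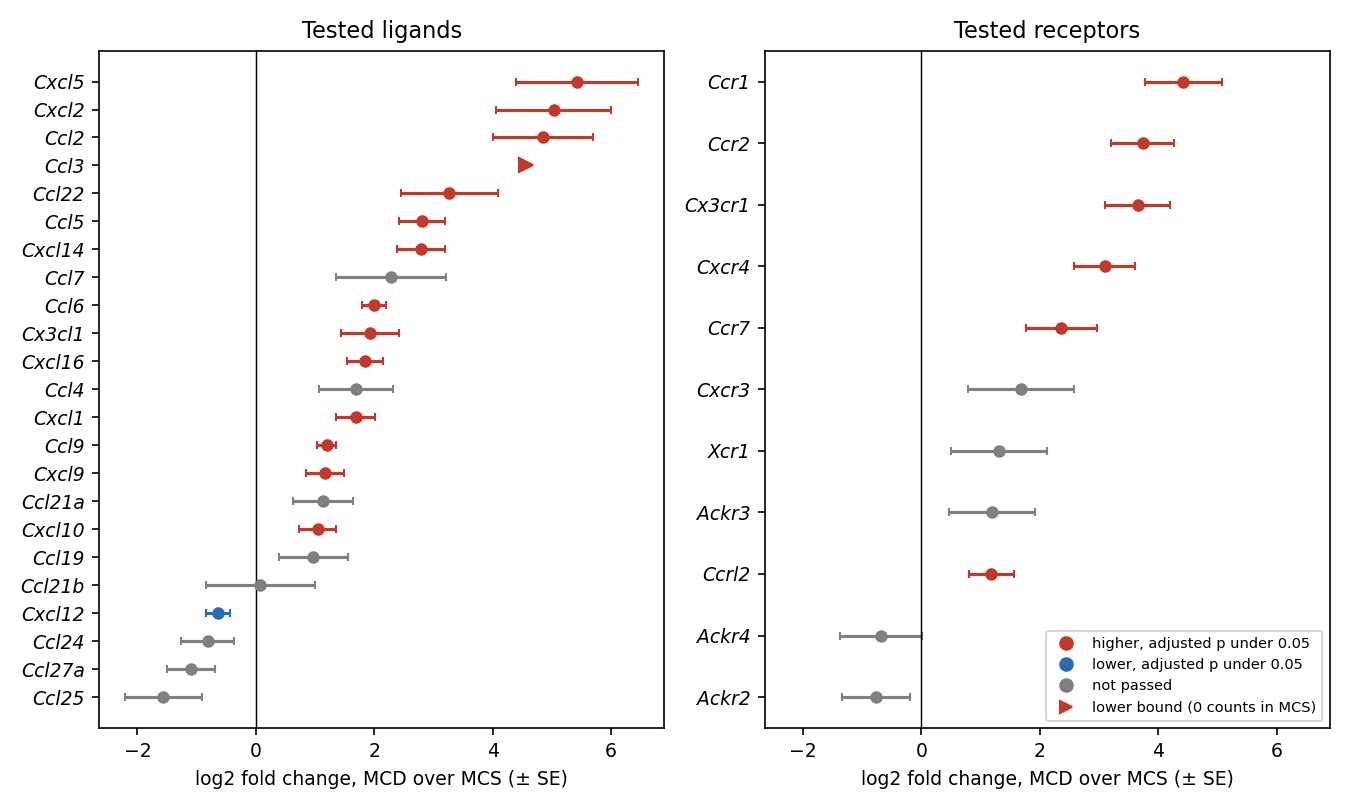
Log2 fold change of each tested ligand (left) and of 11 of the 12 tested receptors (right), MCD over MCS, with its SE (n = 3 libraries per diet, TMM scaling), where an arrow marks the lower bound for Ccl3, which had 0 counts in MCS. Points lie right of 0 for most members, and Cxcl12, left of 0 here, is the ligand called lower, at 0.091 on the log2(TPM + 1) scale.

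All 22 members that passed had no overlap between the diets. Over all 35 tested, every MCD library lay above every MCS library for 23, as for 23.9% of tested genes, and below for 4, as for 21.3%. MCD replicate 3 was the highest of the MCD libraries for 26 of the 35, as for 42.4% of tested genes. That library was also the highest for 14 of 14 markers of recruited macrophages and for all 12 markers of sinusoidal endothelium. The same held for all 12 stellate cell and fibroblast markers and for all tested neutrophil (5) and dendritic cell (5) markers. It was the highest for 9 of 11 T and NK cell, 8 of 9 cholangiocyte and 7 of 11 Kupffer cell markers. For B and plasma cell markers this held for 3 of 4, and for hepatocyte markers for 1 of 11. Among the members that rose it was the highest for all 7 receptors and for 9 of the 14 ligands. The other five ligands peaked elsewhere, Ccl2 and Cxcl2 in MCD replicate 1 and Ccl9, Cxcl1 and Cxcl10 in MCD replicate 2.

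Marker lists of the white blood cells that carry chemokine receptors are given beside the 14.8% of all tested genes that rose and the 9.97% that fell. All 14 recruited macrophage markers rose, with a median log2 fold change of 3.12 and a summed level of 272 to 306 CPM in MCS and 1552 to 3939 CPM in MCD, and none of them was at 0. Of 11 Kupffer cell markers, 3 rose and 3 fell, with sums of 582 to 727 and 716 to 1100 CPM. Those that rose were C1qa, C1qb and C1qc, with log2 fold changes of 1.02, 1.34 and 1.14. Clec4f (-1.20), Timd4 (-2.40) and Cd163 (-2.65) were those that fell. Neutrophil markers rose in 2 of 5 tested (4.61 to 5.79 and 7.83 to 27.4 CPM over 12 genes). The defining marker Ly6g was too low to test on either diet, with 3, 1 and 0 counts in MCS and 0 in every MCD library. Dendritic cell markers rose in 2 of 5 tested (13.0 to 16.2 and 22.1 to 45.9 CPM), T and NK cell markers in 2 of 11 (5.18 to 9.10 and 6.42 to 19.6 CPM), and B and plasma cell markers in 1 of 4 (8.99 to 17.1 and 13.3 to 26.8 CPM).

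Markers of resident liver cells differed between lists. Cholangiocyte markers rose in 7 of 9 tested, with sums of 58.9 to 87.1 CPM in MCS and 218 to 596 CPM in MCD. Spp1, also on the recruited macrophage list, made up most of these sums. Its mean was 49.3 CPM in MCS and 338 CPM in MCD. Stellate cell and fibroblast markers rose in 4 of 12, with sums of 183 to 322 and 403 to 1830 CPM. Hepatocyte markers, which define the labelled tissue, fell in 3 of 11, with sums of 81949 to 104415 and 56827 to 93008 CPM. The 12 sinusoidal endothelial markers had log2 fold changes from -0.87 to 1.44, and the lowest adjusted p among them was 0.399. Their sums spanned 141 to 555 CPM within MCS and 87.7 to 488 CPM within MCD, with replicate 3 the highest on each diet. The part of any of these lists in the chemokine results was not tested, and in whole tissue fewer cells of a type and less RNA per cell cannot be told apart.

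Among the CC ligands, several that attract monocytes and macrophages rose. Ccl6, a ligand of Ccr1 made by myeloid cells, stood at 13.7, 15.3 and 13.8 CPM in MCS replicates 1 to 3 and at 44.2, 51.2 and 75.2 CPM in MCD replicates 1 to 3. The lowest MCD library held 2.90 times the highest MCS library. Ccl6 rose 4.0-fold, a log2 fold change of 2.0 ± 0.20 (SE, n = 3 per diet, adjusted p = 0.000606), the smallest p of any member. Ccl9, a close relative that also acts on Ccr1, had 40.8, 44.9 and 57.0 CPM in MCS and 104, 115 and 108 CPM in MCD. Its MCD libraries lay close together, 109 ± 5.57 CPM (SD, n = 3), with replicate 3 in the middle. Ccl9 rose by 1.20 ± 0.16 on the log2 scale (adjusted p = 0.00174).

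Ccl5, which recruits T cells and monocytes through Ccr1 among others, was a low-level gene in MCS livers. It had 0.460, 0.604 and 0.607 CPM there and 3.42, 3.21 and 5.08 CPM in MCD. Every MCD library was at least 5.29 times the highest MCS library. The log2 fold change was 2.80 ± 0.39 (adjusted p = 0.00215).

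Ccl2, the main monocyte attractant, was close to absent from the control livers. Its counts were 0, 0 and 7 in MCS and 107, 74 and 128 in MCD, so a single MCS library, replicate 3, held all MCS counts. Ccl2 rose by 4.85 ± 0.84 on the log2 scale (adjusted p = 0.0054), and its summed counts gave a 29.5-fold ratio (95% counting interval 14.1 to 73.9). Without MCS replicate 3 no MCS count was left, and the ratio was at least 43.2-fold, against 19.0-fold without MCS replicate 1. Its 3 MCD libraries stood at 4.81, 3.35 and 4.46 CPM, a narrower range than for its receptor Ccr2 below.

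Ccl3 and Ccl4 are neighbouring genes for inflammatory ligands, and Ccl3 acts on Ccr1. Ccl3 had 0 counts in all MCS libraries and 20, 27 and 60 counts in MCD, so with 3 counts allowed for the whole MCS group its summed level was at least 23.8-fold higher (adjusted p = 0.00536). That bound was 14.9-fold without MCS replicate 3 and 15.3-fold without MCS replicate 1. Ccl4 did not pass, with a log2 fold change of 1.69 ± 0.63 (adjusted p = 0.0783), though all MCD libraries lay above all MCS libraries. Ccl7, another ligand of Ccr1 and Ccr2, did not pass either, with 2.28 ± 0.93 (adjusted p = 0.104). Of its 9 MCS counts 8 were in MCS replicate 1, and without that library it passed, with 4.59 (adjusted p = 0.0486).

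The receptors for these ligands were higher in the same livers. Ccr1, found on monocytes, macrophages and neutrophils, had 0.115, 0.0756 and 0.331 CPM in MCS and 3.78, 2.04 and 6.20 CPM in MCD. These MCS levels rest on 9 counts in all. Its log2 fold change of 4.42 ± 0.65 (adjusted p = 0.00271) was 5.27 without MCS replicate 3. Ccr2, the receptor that marks incoming monocytes, had 0.805, 0.831 and 0.331 CPM in MCS and 7.60, 4.34 and 14.1 CPM in MCD. MCD replicate 3 held 3.25 times the level of MCD replicate 2, yet replicate 2 was still above all MCS libraries. Ccr2 rose by 3.74 ± 0.53 on the log2 scale (adjusted p = 0.0024), and by 2.86 when replicate 3 of both diets was left out.

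**Figure D2:**
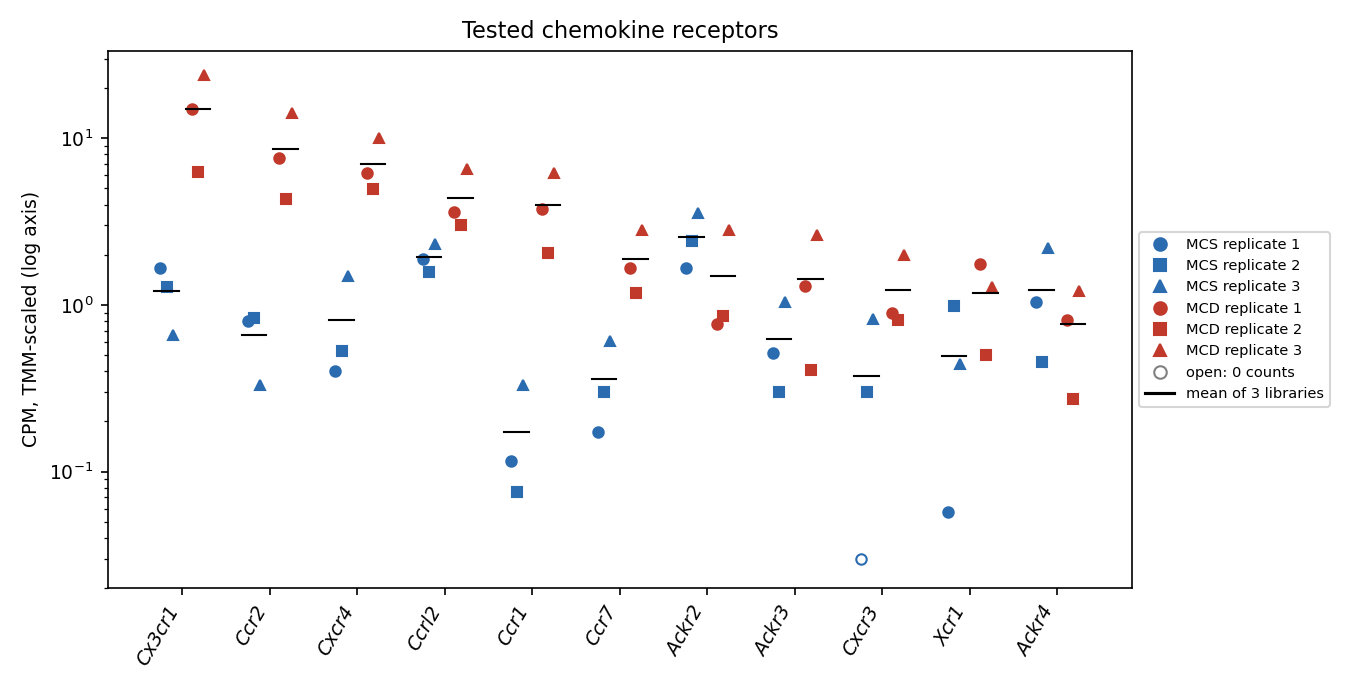
CPM (log axis) of 11 of the 12 tested receptors in each library, with the mean of the 3 libraries of a diet as a bar and open symbols for 0 counts. For the 6 of these that rose, MCD replicate 3 is the highest of all libraries and the lowest MCD library is above all MCS libraries.

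Across the 7 receptors that rose, the level in MCD replicate 3 was between 2.03 (Cxcr4) and 3.84 (Cx3cr1) times that in MCD replicate 2. The summed recruited macrophage markers had a ratio of 2.54 between the same libraries. For other marker sums it was 2.08 (dendritic cell), 2.74 (cholangiocyte), 3.06 (T and NK cell) and 3.51 (neutrophil). Stellate cell and fibroblast markers had 4.54 and sinusoidal endothelial markers 5.57. The ratio was 2.01 for B and plasma cell, 1.29 for Kupffer cell and 0.611 for hepatocyte markers. Several ligands had a lower ratio than these receptors: 0.756 for Cxcl1, 0.834 for Cxcl10, 0.939 for Ccl9, 0.975 for Cxcl2 and 1.33 for Ccl2. For others, such as Cxcl14 at 3.09 and Ccl22 at 3.33, it was within the range of the receptors.

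The CXC ligands that attract neutrophils through Cxcr2 rose from different starting levels. Cxcl1 was expressed in both diets, at 4.43, 6.27 and 2.59 CPM in MCS and 10.9, 18 and 13.6 CPM in MCD. It rose by 1.69 ± 0.33 on the log2 scale (adjusted p = 0.00822). Cxcl2 and Cxcl5, which act on the same receptor, were near 0 in control livers. Cxcl2 had 1, 0 and 0 counts in MCS and 28, 15 and 19 in MCD, a ratio of 41.4 with a wide 95% counting interval of 7.16 to 1660 (adjusted p = 0.0081). Cxcl5 had 0, 0 and 1 counts in MCS and 24, 11 and 52 in MCD, a ratio of 58.1 (10.1 to 2319, adjusted p = 0.00766). Leaving out the 1 MCS library that held the count gave bounds of at least 8.87-fold for Cxcl2 (MCS replicate 1) and at least 12.2-fold for Cxcl5 (MCS replicate 3). For Cxcl2 the ratio was 26.0 without MCS replicate 3. For Cxcl5 the ratio was 38.5 without MCD replicate 3 and 37.4 without MCS replicate 1.

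Cxcr2 itself was below the count filter, with 7 counts in MCS (0, 3 and 4) and 69 in MCD (14, 6 and 49). The ratio of its summed counts was 6.58 (95% counting interval 3.03 to 17.0), and 3.14 without MCD replicate 3, 4.23 without MCS replicate 1 and 9.64 without MCS replicate 3. Cxcr1, a related receptor, went from 10 to 5 counts, a ratio of 0.334 whose interval of 0.0895 to 1.07 includes 1 and that was 0.0959 without MCD replicate 1. Such intervals, here and below, cover counting error only.

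Cxcl1, Cxcl2 and Cxcl5 lie in 1 gene cluster with Cxcl3 and Cxcl15, and the promoters of Cxcl1 and Cxcl2 are shown because both hold the same letters. The 3 ligands that rose peaked in different MCD libraries, Cxcl1 in replicate 2, Cxcl2 in replicate 1 and Cxcl5 in replicate 3. RefSeq promoters (GRCm38.p6, 250 bases before to 50 after the start of the gene) were found for 47 of the 61 members. Of these, 11 (23.4%) held a match to the kappaB consensus, the motif of the inflammatory factor NF-kappaB, searched on both strands, as did 5.14% of 27025 genes. The share was 5 of 15 among members that rose and 6 of 32 among the others. Those others include Cxcl3, which held 2 matches, as Cxcl1 and Cxcl2 did, and had 0 counts in MCS and 1 in MCD. In the sequences below, the 250 bases before the start are printed 5′ to 3′ on the gene's own strand, with kappaB matches in capitals. Cxcl1 (chr5:90890995-90891244, plus strand) and Cxcl2 (chr5:90903649-90903898, plus strand) each held the same 11 letters, which contain 2 overlapping matches and lie 71 to 61 and 97 to 87 bases before the start.
Cxcl1: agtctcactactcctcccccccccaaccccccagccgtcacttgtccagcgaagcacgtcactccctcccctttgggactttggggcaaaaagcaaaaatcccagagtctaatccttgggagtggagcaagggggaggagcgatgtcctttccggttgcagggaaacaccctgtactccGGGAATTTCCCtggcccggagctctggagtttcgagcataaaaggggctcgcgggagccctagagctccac
Cxcl2: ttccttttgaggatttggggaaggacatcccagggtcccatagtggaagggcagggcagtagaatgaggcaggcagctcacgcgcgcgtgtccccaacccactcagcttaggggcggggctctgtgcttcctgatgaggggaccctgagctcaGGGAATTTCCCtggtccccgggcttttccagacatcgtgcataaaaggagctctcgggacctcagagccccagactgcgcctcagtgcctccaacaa
A match is a run of letters and not a measured binding site, and no factor's binding was measured here.

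Cxcl9 and Cxcl10 are interferon-induced ligands of Cxcr3, which draws in activated T and NK cells. Cxcl9 had 6.88 ± 1.85 CPM in MCS and 15.5 ± 5.73 CPM in MCD (SD, n = 3 each), a log2 fold change of 1.17 ± 0.32 (adjusted p = 0.0293). Cxcl10 had 2.47, 3.85 and 5.85 CPM in MCS and 8.32, 9.18 and 7.66 CPM in MCD, a change of 1.04 ± 0.31 (adjusted p = 0.0395). Its lowest MCD library was 1.31 times its highest MCS library. Both calls were weak: that of Cxcl9 was lost without MCS replicate 1 (adjusted p = 0.0662), 2 (0.104) or 3 (0.0615) and without MCD replicate 1 (0.0972) or 3 (0.0755), without replicate 3 of both diets (0.106) and with limma-voom (0.0717). That of Cxcl10 was lost without MCS replicate 1 (0.113) or 2 (0.125) and without MCD replicate 1 (0.108) or 2 (0.0581). Cxcr3 did not pass, with 1.68 ± 0.90 (adjusted p = 0.197) and a range of 0 to 0.827 CPM in MCS and 0.814 to 1.98 CPM in MCD.

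An interferon response element, here searched as GAAANNGAAA on both strands, was present in 3 of 47 member promoters (6.38%) and in 3.99% of all genes. The 3 were those of Cxcl10, of Cxcl14, which rose, and of Ccl19, which did not pass. The window of Cxcl9 held 0 matches to that element and 0 to kappaB. The Cxcl10 promoter is shown because it alone of the 47 held both motifs. In the Cxcl10 promoter (chr5:92348890-92349139, minus strand) capitals mark, in order, that element at 213 to 204 bases before the start and kappaB matches at 159 to 150 and 103 to 94.
Cxcl10: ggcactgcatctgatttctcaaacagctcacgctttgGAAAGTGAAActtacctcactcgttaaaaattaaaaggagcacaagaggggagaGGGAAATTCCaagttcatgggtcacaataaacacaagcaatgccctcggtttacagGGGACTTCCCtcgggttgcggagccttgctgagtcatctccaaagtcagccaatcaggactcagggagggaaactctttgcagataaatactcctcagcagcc
The AP-1 motif, TGANTCA on either strand of the 300 bases, was in 8 of 47 members (17%) and 8.97% of all genes. A TATA box, searched on the gene's strand as TATAAA, was in 12 of 47 (25.5%) and 9.77%.

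**Figure D3:**
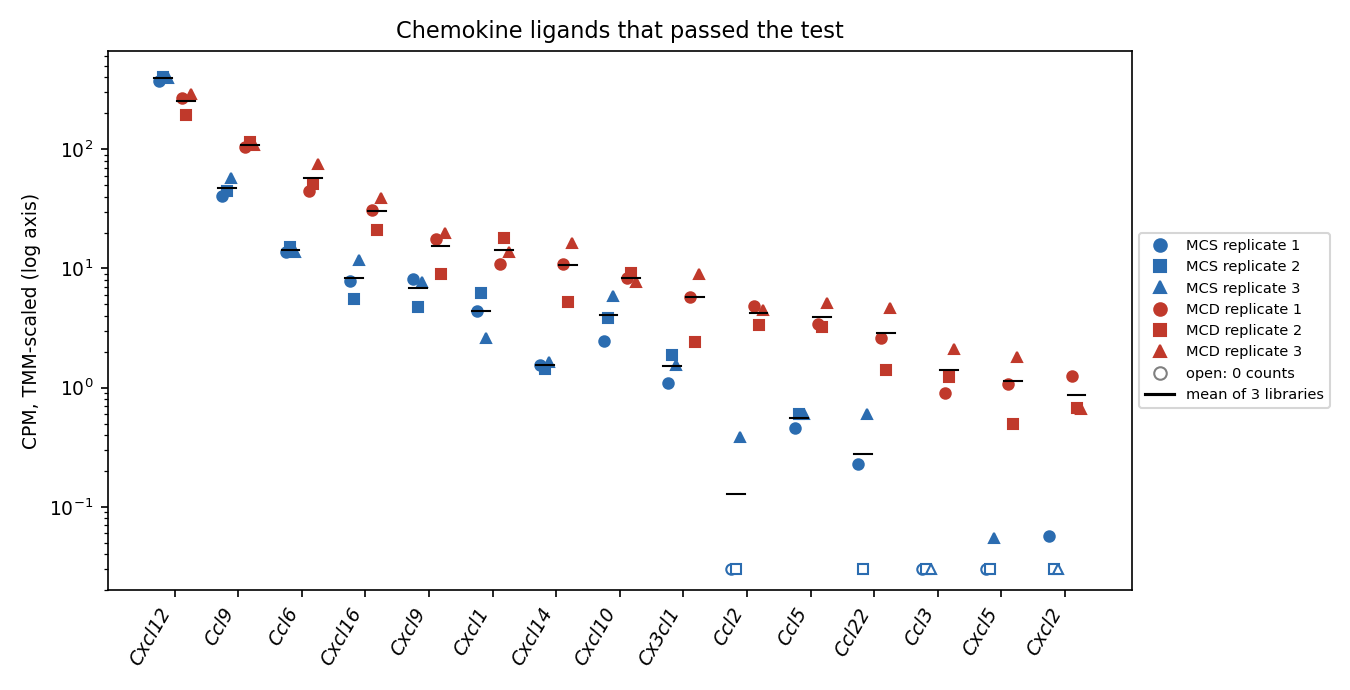
CPM (log axis) in each library of the ligands that passed the test (14 higher and 1 lower), with the mean of the 3 libraries of a diet as a bar and open symbols for 0 counts. The 8 tested ligands that did not pass are not shown. Every MCD library lies above every MCS library for Ccl6 (13.7 to 15.3 against 44.2 to 75.2) and Ccl9 (40.8 to 57.0 against 104 to 115), and Ccl3 has open symbols in all 3 MCS libraries.

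Cxcl12, which retains blood cells and is made by stromal cells and by endothelium, was the most abundant chemokine transcript on both diets. It had 373, 406 and 399 CPM in MCS and 271, 194 and 289.8 CPM in MCD, so the groups did not overlap. On this scale it was lower in MCD by a log2 fold change of -0.64 ± 0.20 (adjusted p = 0.0455), but it was -0.060 (adjusted p = 0.845) on library size alone and 0.091 (adjusted p = 0.774), with the opposite sign, on the log2(TPM + 1) scale. In TPM it was 211 ± 17.8 in MCS and 237 ± 89.6 in MCD (SD, n = 3). The call was also lost without MCS replicate 1 (adjusted p = 0.116), 2 (0.141) or 3 (0.0900) and without MCD replicate 1 (0.117) or 2 (0.0632). The direction of Cxcl12 therefore depends on the scale used, and the reason was not tested. Its TPM per CPM, without TMM scaling, was 0.641 to 0.664 in MCS libraries and 0.709 to 0.789 in MCD libraries.

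Its share among the ligands does not depend on the scaling of a library. Of the summed TPM of all ligands, Cxcl12 held 74.2%, 75.0% and 71.3% in MCS and 44.3%, 35.8% and 40.0% in MCD. The groups did not overlap, 73.5% ± 1.97 against 40.0% ± 4.23 (SD, n = 3), and with 3 against 3 libraries an exact permutation test cannot give a two-sided p below 0.1. Ccl6 went from 4.73% to 15.0% of ligand TPM and Ccl9 from 7.50% to 14.2%. The summed TPM of the ligands other than Cxcl12 was 76.6 ± 14.1 in MCS and 349 ± 118 in MCD. TPM carries no TMM scaling, and on log2(TPM + 1) the median change over all tested genes was 0.53.

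**Figure D4:**
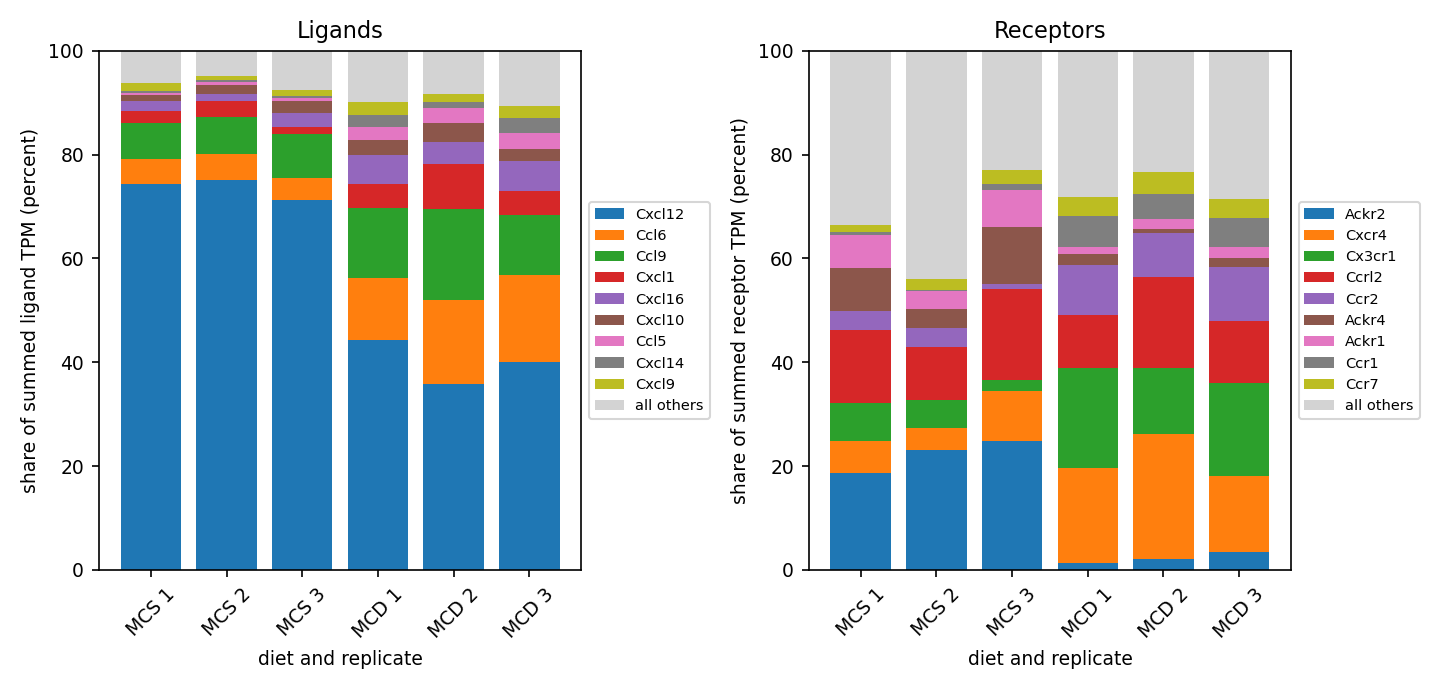
Share of the leading genes in the summed TPM of all ligands (left) and of all receptors (right), one stacked bar per library, in percent, with all other members in grey. Cxcl12 takes 71.3% to 75.0% of ligand TPM in MCS and 35.8% to 44.3% in MCD.

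Cxcr4, the signalling receptor for Cxcl12, was higher in MCD. It had 0.403, 0.529 and 1.49 CPM in MCS and 6.21, 4.93 and 10.03 CPM in MCD, a log2 fold change of 3.10 ± 0.51 (adjusted p = 0.00442). The highest MCS library was replicate 3, without which the change was 3.91. Ackr3, the atypical receptor that takes up Cxcl12, did not pass, with 1.19 ± 0.72 (adjusted p = 0.255).

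The membrane-anchored chemokines can hold cells as well as attract them. Cxcl16, the ligand of Cxcr6 and also a scavenger receptor, had 8.37 ± 3.09 CPM in MCS and 30.3 ± 9.24 CPM in MCD (SD, n = 3), and rose by 1.85 ± 0.31 on the log2 scale (adjusted p = 0.00521). Cxcr6, carried by T, NKT and other lymphoid cells, was below the filter with 15 counts in MCS (3, 2 and 10) and 94 in MCD (15, 9 and 70). Its ratio of 4.18 (95% counting interval 2.41 to 7.77) was 1.76 without MCD replicate 3 and 7.88 without MCS replicate 3. Cx3cr1, a receptor of monocytes and macrophages, had 1.67, 1.28 and 0.662 CPM in MCS and 15.0, 6.24 and 24.0 CPM in MCD, the highest mean TPM of any receptor in MCD at 10.3. It rose by 3.65 ± 0.56 on the log2 scale (adjusted p = 0.0043), and by 2.83 without replicate 3 of both diets. Cx3cl1, its only ligand among the members, had 1.09, 1.89 and 1.54 CPM in MCS and 5.76, 2.40 and 8.99 CPM in MCD and rose by 1.93 ± 0.49 (adjusted p = 0.0223). Its call was lost without MCS replicate 1 (adjusted p = 0.0865), 2 (0.0593) or 3 (0.0618) or MCD replicate 1 (0.0645) and with limma-voom (0.0899).

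Cxcl14, expressed by epithelia and stromal cells and with no agreed signalling receptor, rose by 2.79 ± 0.41 on the log2 scale (adjusted p = 0.00263). It had 1.55, 1.44 and 1.65 CPM in MCS, a range narrower than in most members, and 10.9, 5.25 and 16.2 CPM in MCD. The lowest MCD library was 3.17 times the highest MCS library.

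Of the genes that guide dendritic cells and lymphocytes, Ccl22 and Ccr7 rose, and Ccl19, Ccl21a, Ccl21b and Xcr1 did not pass. Ccl22, a ligand of Ccr4 made by dendritic cells and macrophages, rose by 3.27 ± 0.82 on the log2 scale (adjusted p = 0.0222) from 0.230, 0 and 0.607 CPM in MCS to 2.61, 1.40 and 4.67 CPM in MCD. It was 4.44 without MCS replicate 3, and the call was lost without MCS replicate 1 (adjusted p = 0.0861) or MCD replicate 1 (0.0595). Ccr4 had 0 counts in MCS and 11 in MCD (1, 1 and 9), and Ccl17, the other ligand of Ccr4, had 0 and 6.

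Ccr7, which takes dendritic cells and T cells to lymph nodes, rose by 2.36 ± 0.60 on the log2 scale (adjusted p = 0.0227), from 0.360 to 1.89 CPM on average. The call was lost without MCS replicate 1 (adjusted p = 0.0898) or 2 (0.0888) and without MCD replicate 1 (0.0637) or 3 (0.0568), and the change was 2.98 without MCS replicate 3. None of its ligands passed. Ccl19 had 0.98 ± 0.58 (adjusted p = 0.243), Ccl21a 1.14 ± 0.50 (adjusted p = 0.13) and Ccl21b 0.080 ± 0.92 (adjusted p = 0.959). The Ccl21 genes are near-identical copies whose reads may be divided arbitrarily, and summed with Ccl21d they gave 0.87 ± 0.55 (adjusted p = 0.269). Ccl21a alone did pass without MCS replicate 3 (1.77, adjusted p = 0.0486) or MCD replicate 2 (1.38, adjusted p = 0.0461) and on library size alone (1.72, adjusted p = 0.0492). Xcr1, the receptor of cross-presenting dendritic cells, did not pass, with 1.3 ± 0.81 (adjusted p = 0.265), and its ligand Xcl1 had 0 counts in MCS and 9 in MCD (5, 1 and 3).

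Ccl24, Ccl25 and Ccl27a had lower mean levels in MCD, with no overlap between the diets in TMM-scaled CPM, but did not pass. In TPM the diets overlapped for Ccl24 and Ccl27a and not for Ccl25. For Ccl25, a ligand of gut-homing Ccr9, the log2 fold change was -1.56 ± 0.65 (adjusted p = 0.109). Ccl27a, best known as a skin chemokine, had -1.09 ± 0.41 (adjusted p = 0.0793), and Ccl24, an eosinophil attractant, -0.81 ± 0.45 (adjusted p = 0.215). Ccl27b, a near-identical copy of Ccl27a, had 0 counts everywhere. Exons of Ccl25 and Ccl27a overlap those of Elavl1 and Il11ra1 on the opposite strand in the GENCODE GRCm38 annotation. Whether the libraries kept the strand is not in the labels, and without it reads of such partners cannot be told apart. The same holds for 3 members that rose, Cxcl10 with Art3, Cxcl16 with Zmynd15 and Cx3cr1 with Gm33858. It also holds for Ackr4 with Acad11, where Ackr4 did not pass. Exons of Ackr1, which was below the count filter, overlap those of Cadm3 on the same strand.

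Of the atypical and chemokine-binding receptors, 1 of 4 tested rose, beside 14.8% of all tested genes. Ccrl2, which presents chemerin to other cells and binds no chemokine with certainty, rose by 1.18 ± 0.38 on the log2 scale (adjusted p = 0.0495). Its adjusted p was the highest of the 22 that passed, and the call was lost without MCS replicate 1 (adjusted p = 0.136), 2 (0.153) or 3 (0.0771) and without MCD replicate 1 (0.0917) or 3 (0.153). The call of Ccrl2 was also lost with DESeq2 size factors (0.051), non-robust dispersions (0.0503) and limma-voom (0.0957), and without replicate 3 of both diets (0.108). Ackr2, which scavenges inflammatory CC ligands, had 1.67, 2.42 and 3.59 CPM in MCS and 0.764, 0.860 and 2.82 CPM in MCD, a log2 fold change of -0.77 ± 0.57 (adjusted p = 0.348). MCD replicate 3 alone overlapped the MCS libraries, and without it Ackr2 fell by 1.65 on the log2 scale (adjusted p = 0.04). Its TPM was 2.59 ± 1.14 in MCS and 1.54 ± 1.64 in MCD (SD, n = 3), although its TPM per CPM, which follows the transcript length behind the authors' TPM, varied 2.01-fold across libraries. Its mean share of summed receptor TPM was 22.2% and 2.25%, while that sum itself was 11.4 ± 3.59 and 59.0 ± 38.7. Like the ligand sum above, the receptor sum carries no TMM scaling. Ackr4, which scavenges the ligands of Ccr7, had -0.68 ± 0.69 (adjusted p = 0.499), and Ackr1, the scavenger of red cells and venules, had 28 and 42 counts, a ratio of 1.0 (95% counting interval 0.606 to 1.68) that was 0.589 without MCD replicate 3.

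**Figure D5:**
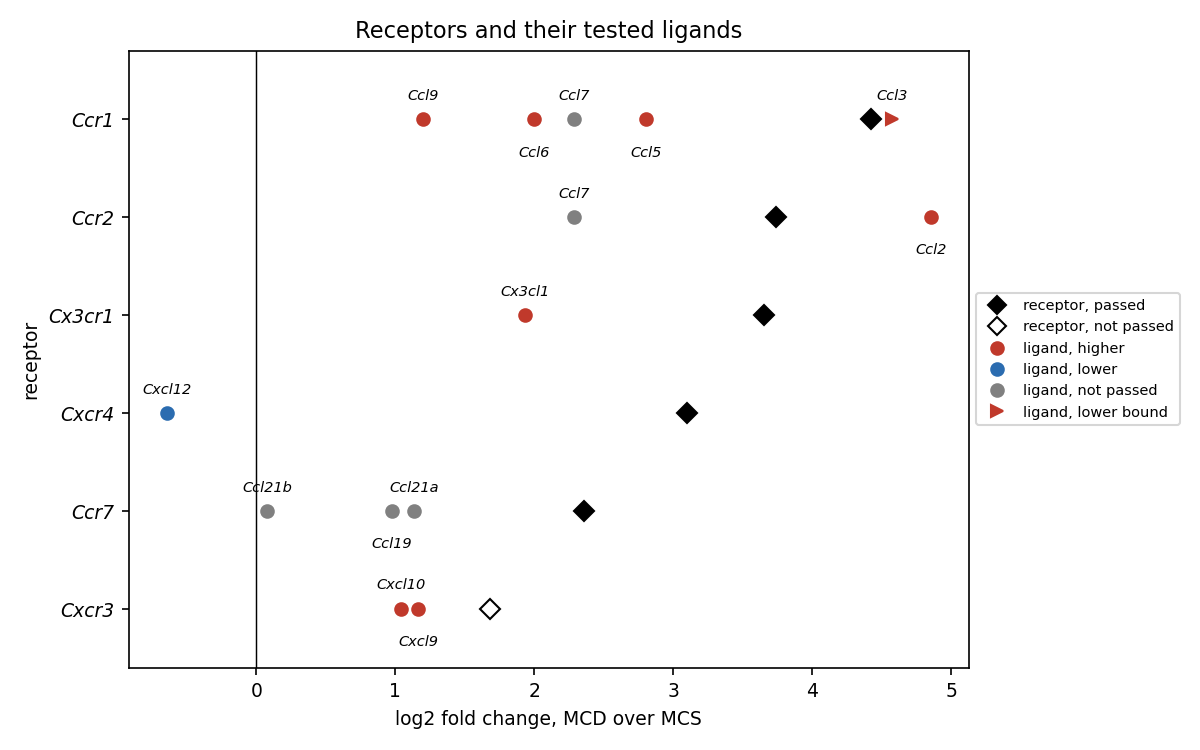
Log2 fold change (MCD over MCS, TMM scaling) of tested receptors (diamond) and of its tested ligands (circles, with an arrow for the lower bound of Ccl3) on 1 line per receptor. Ccr1, Ccr2 and Cx3cr1 stand right of 0 with ligands that rose, and Cxcr4 stands right of 0 with Cxcl12, which is left of 0 here and at 0.091 on the log2(TPM + 1) scale.

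Ligands and signalling receptors were set side by side in 36 known pairs, of which 14 had both genes tested. Both genes rose in 6 pairs: Ccl3, Ccl5, Ccl6 and Ccl9 with Ccr1, Ccl2 with Ccr2, and Cx3cl1 with Cx3cr1. In 5 pairs only the receptor passed, Ccl7 with Ccr1 and Ccr2, and Ccl19, Ccl21a and Ccl21b with Ccr7. In 2 pairs only the ligand passed, Cxcl9 and Cxcl10 with Cxcr3. Cxcl12 with Cxcr4 was the pair called in opposite directions, and that call of Cxcl12 was lost on library size alone and changed sign in TPM. Pairs share members, so they are not independent, and RNA of a ligand and of its receptor need not lie in the same cells.

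Low counts left 26 members untested. Ccl1, Ccl21d, Ccl26, Ccl27b and Cxcl15 had 0 counts in every library, and Cxcl3 and Cxcl17 had at most 3 in each diet. Of the 19 others, 8 had a counting interval of the ratio above 1 (Ccl11, Ccl20, Xcl1, Ccr3, Ccr4, Ccr9, Cxcr2 and Cxcr6), and 0 had one below 1. Fitted without a count filter in edgeR's quasi-likelihood test, 0 of the 21 low members with any count passed, and 7 had an unadjusted p under 0.05, all higher in MCD. These were Ccl20, Ccr3, Ccr4, Ccr9, Cxcr2, Cxcr6 and Xcl1, with adjusted p of 0.0961 (Cxcr2) to 0.149 (Ccr9).

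Several of these rest on 1 library. Ccr3, the eosinophil receptor, had 1 count in MCS and 38 in MCD, of which 34 were in MCD replicate 3. Its ratio of 25.4 (95% counting interval 4.28 to 1028) was 4.40 without that library and 16.3 without MCS replicate 1, and without MCS replicate 3 no MCS count was left. Ccl11, an eosinophil attractant that acts on Ccr3, had 1 count in MCS and 11 in MCD, all of them in MCD replicate 3, a ratio of 7.34 (1.07 to 316) that was 4.61 without MCS replicate 3, while MCS replicate 1 held the MCS count. Ccr9, the receptor of Ccl25, had 2 counts in MCS and 25 in MCD, a ratio of 8.34 (2.08 to 72.7) that was 3.85 without MCD replicate 3 and 5.37 without MCS replicate 1, with both MCS counts in MCS replicate 3.

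The remaining low members mostly concern B cells, regulatory T cells and mucosal sites. Ccl20 had 0 counts in MCS and 9 in MCD, and its receptor Ccr6, of Th17 and B cells, had 0 and 6. Ccr8 had 0 and 4 counts, Ccl8 had 1 and 7, and Ccl12 had 1 and 4, with counting intervals of the ratio that include 1. Cxcl13, the B cell attractant, had 23 and 18 counts, a ratio of 0.522 (95% counting interval 0.266 to 1.01) that was 0.250 without MCD replicate 2. Its receptor Cxcr5 had 12 and 25 counts, a ratio of 1.39 (0.673 to 3.04) that was 10.5 without MCS replicate 3. Ccl28 had 12 and 12 counts, a ratio of 0.667 (0.274 to 1.62) that was 2.51 without MCS replicate 3 and 0.320 without MCD replicate 1, and its receptor Ccr10 had 10 and 7.

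In the mouse genome many of these genes sit side by side. In the RefSeq GRCm38 gene order, 39 of the 61 members had another within 4 protein-coding genes, in 11 clusters. The cluster of Ccl3, Ccl4, Ccl5, Ccl6 and Ccl9 had 4 of 5 tested genes higher, and that of Cxcl1, Cxcl2 and Cxcl5 all 3 tested. Of all tested genes 14.8% rose, and of the 35 tested members 21 did. Clusters of Cxcl9 with Cxcl10, and of Ccl22, Cx3cl1 and Ccl17, had 2 of 2 tested higher, and Cx3cr1 with Ccr8 had 1 of 1. That of Ccl19, Ccl21a and Ccl27b had 0 of 2. Ccl27a with Ccl21d, and Ccl24 with Ccl26, had 0 of 1 each. The cluster of Ccl2, Ccl7, Ccl8, Ccl11, Ccl12 and Ccl1 had only Ccl2 higher of 2 tested. Among receptors, Ccr1 and Ccr2 rose in a cluster that also holds Ccr3, Ccr9, Cxcr6 and Xcr1, of which Xcr1 was tested and did not pass. Genes of one cluster thus ranged from 0 counts on both diets (Ccl1) to a 29.5-fold ratio of summed counts (Ccl2).

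Of 45 tested genes for chemokine signalling and handling, 26 rose, 2 fell and 17 did not pass, with a median log2 fold change of 0.88. Of all tested genes, 14.8% rose and 9.97% fell. The list holds signalling genes downstream of the receptors, and also chemokine-like ligands, their receptors and proteins that bind chemokines. Pik3r5, the regulatory subunit of the PI3-kinase that G protein beta-gamma dimers activate, had 1.39 ± 0.298 CPM in MCS and 13.0 ± 6.31 CPM in MCD (SD, n = 3) and rose by 3.22 ± 0.39 on the log2 scale (adjusted p = 0.0012). Rgs1, which ends G protein signals, rose by 2.92 ± 0.38 (adjusted p = 0.00158). Coro1a, an actin regulator of white blood cells, rose by 2.19 ± 0.26 (adjusted p = 0.00126), and Elmo1, which works with Dock2 to activate Rac, by 2.1 ± 0.29 (adjusted p = 0.00202). These 4 genes are expressed mainly in white blood cells, whose markers are given above, and the part of those markers was not tested. The summed level of the whole list was 2516 to 2718 CPM in MCS and 2837 to 3066 CPM in MCD. That sum is weighted towards abundant genes such as Rarres2, at a mean of 417 CPM in MCS and 511 CPM in MCD, Sdc1 and Sdc4. In the sum, MCD replicate 3 held 1.08 times the level of MCD replicate 2, against 2.54 times for the recruited macrophage markers. For the hepatocyte markers that ratio was 0.611. By gene, MCD replicate 3 was the highest MCD library for 33 of the 45, beside 42.4% of all tested genes. Without MCS replicate 1, or without MCS replicate 2, 14 of the list rose.

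The 2 that fell were syndecans, cell-surface heparan sulphate carriers that bind chemokines and are abundant on hepatocytes. Sdc4 went from 384 ± 44.6 to 182 ± 44.5 CPM, -1.07 ± 0.22 on the log2 scale (adjusted p = 0.0103), and lost its call without MCS replicate 2 (0.0532) or MCD replicate 1 (0.0507). Sdc1 went from 358 ± 66.8 to 195 ± 40.3 CPM, -0.88 ± 0.22 (adjusted p = 0.0229), and lost its call without MCS replicate 1 (0.1) or 2 (0.091) or MCD replicate 1 (0.0806) and on library size alone (0.0952) or the log2(TPM + 1) scale (0.2). Hepatocyte markers also fell in 3 of 11, and their part was not tested. Of chemokine-like genes outside the named families, the chemerin receptor Cmklr1 rose by 1.33 ± 0.34 (adjusted p = 0.0235), a call lost without MCS replicate 1 (0.0843), 2 (0.0867) or 3 (0.0509) and with limma-voom (0.0712). Its ligand Rarres2 (0.29 ± 0.23, adjusted p = 0.387) and the platelet chemokine Pf4 (1.77 ± 0.81, adjusted p = 0.142) did not pass.

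In the authors' deposited table, whose folds rest on TPM, 26 members had an FDR under 0.05, all higher in MCD. Of these, 21 also rose in the count test, and the other five were Ccl21a, Ccl7, Ccr3, Cxcr2 and Cxcr6. Cxcl12 was called in the count test and not in the authors' deposited table.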

How the data were processed

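Liver polyA RNA was sequenced in 6 libraries, 3 per diet, grouped by the diet in their titles. Per the submitters' processing notes, the build was GRCm39, and RSEM, HISAT2 2.1.0, Bowtie2 2.2.8, StringTie 1.3.1 and fastp 0.18.0 were used in unstated roles. Per the file headers, the deposited table holds a count and a TPM for each gene and library, and the authors' log2 fold change, p-value and FDR, from a test not given in the sources used here. The deposited counts are whole, but 64 of them are 0 where the TPM is above 0, and they were taken as estimated counts that the authors had rounded.

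Counts were tested in R 4.3.3 with edgeR 4.0.16: filterByExpr by group (minimum count 10), TMM, robust quasi-likelihood fit with diet as the only term, and Benjamini-Hochberg adjustment over 12599 genes. The lowest share of a library's counts in tested genes was 99.9%. Each SE is the absolute log2 fold change over the root of its F statistic. Lower bounds use a floor of 3 counts per group, and ratios of summed counts have exact 95% intervals. Alternatives used DESeq2 1.42.0, limma 3.58.1 (voom, and log2(TPM + 1) or log2(TPM + 0.1)), other scalings and filters, and each library left out. The scripts were tested on simulated data.

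The members and gene lists were chosen with earlier results of these data known. By rule, values in every library were given for the 4 called ligands and the 4 called receptors with the smallest p in each direction and the most abundant ligand and receptor per diet. The values of 1 member are not reported here, and it is in the counts but not in the pairs. Of the signalling list the 4 called with the smallest p in each direction were named. Ccl2, Ccl3, Cxcl1, Cxcl2, Cxcl5, Cxcl10, Cx3cl1, Ccl22 and Cxcr4, and the low-count genes given by library, were chosen for that after their values were seen, as were Cmklr1, Rarres2 and Pf4.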

Additional observations from a re-analysis of the deposited data

How the results depend on the processing

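The genes called higher over all tested, 1861, were 5095 on library size alone, 3192 without the abundant and Mup genes in the library sizes, 5401 on log2(TPM + 1), 5692 on log2(TPM + 0.1), 754 at an adjusted p under 0.01 and 946 to 2363 with 1 library left out. Those called lower, 1256, were 348, 566, 268, 282, 304 and 400 to 2072 in the same order. Ligands called higher were 10 to 18 over all alternatives and receptors 5 to 9, within 1.5 times the reported 14 and 7. The 1 ligand called lower, Cxcl12, gave 0 on library size alone, without the abundant and Mup genes, with no count filter, with a minimum count of 30, on both TPM scales and at an adjusted p under 0.01. It gave 2 in DESeq2's test, where Ccl27a joined it, and 0 to 1 with 1 library left out. The log2 fold change of Cxcl12 reversed to 0.091 on both TPM scales, and the cause was not tested. Receptors called lower were 0 to 1 with 1 library left out. Signalling genes called higher were 14 at an adjusted p under 0.01 and 14 to 27 with 1 library left out. Those called lower were 1 on library size alone and on both TPM scales, 0 at an adjusted p under 0.01 and 0 to 3 with 1 library left out. Ccl2, Ccl3, Ccl5, Ccl6, Ccl9, Cxcl1, Cxcl2, Cxcl5, Cxcl14, Cxcl16, Ccr1, Ccr2, Cx3cr1 and Cxcr4 kept their calls in all 6 fits with 1 library left out.

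With the replicate number as a block, 1987 genes rose and 1296 fell, 15 ligands rose, Cxcl12 no longer passed (-0.66, adjusted p = 0.0539), leaving 0 ligands lower, and Ccl21a passed (1.20, adjusted p = 0.0455). The block changed no other member's call, and 28 signalling genes rose. Same-numbered samples of the 2 diets deviated together with r of 0.063, 0.147 and 0.246 for replicates 1, 2 and 3. MCS replicate 1 correlated best with MCD replicate 2 (0.132), while MCS replicates 2 and 3 each correlated best with the MCD sample of their own number. These values cannot tell whether same-numbered samples share a batch, and the labels give only the number.

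Depth limits the members under the filter: 5 had 0 counts in every library, and a group total of 0 allows up to 3 counts. With 3 libraries per diet, values far from the rest of a group were not tested.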
